A study of Rattus norvegicus with 4 samples.

Results

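The genes described here are the metallothioneins Mt1, Mt2A and Mt3, the metal-responsive factor gene Mtf1 and 6 zinc transporter genes, Slc30a1, Slc30a5, Slc30a7, Slc39a1, Slc39a10 and Slc39a14. They were taken by name, through the RefSeq transcript accession that each array probe carries. Of the 10 listed genes 9 were measured, by 11 probes and 29 spots on each array, among 16581 named genes in all. Slc39a10 was matched by no probe and has no level here. The RNA came from NR8383 cells, a macrophage line from the lung lavage of a normal rat, which had gone through 20 passages in medium with 15% serum. All samples belong to one group, which received Printex90, a commercial carbon black, at a labelled dose of 0.9 cm2/cm2 for 4 h, under the label ALI. The 4 replicates are described as biological in the series design, which also includes unexposed control cells. Those controls were not analysed here, so none of the levels below is a response to the particles.

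Metallothioneins are small, cysteine-rich proteins that bind zinc and copper in the cytosol and buffer the free metal. MTF1 is a zinc finger transcription factor that senses a rise in free zinc and switches on metallothionein genes and the zinc exporter gene Slc30a1 through metal response elements in their promoters. Transporters of the ZnT family (Slc30) move zinc out of the cytosol, into the medium or into organelles, and those of the ZIP family (Slc39) move it into the cytosol. Macrophages use the same proteins to hold zinc back from microbes and to adjust zinc during inflammation.

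Total RNA was measured on 1-colour Agilent arrays, 1 array for each replicate. A gene was called detected on an array when the scanner software flagged any spot of its probes as well above background. A level is the log2 processed intensity minus the array's 75th percentile over all probes, which was an intensity of 83.8 to 127, so a level of 0 lies at that percentile. Different probes bind with different strength, and the levels of different genes are not ranked against each other. The arrays detected between 8917 and 9985 named genes, with the highest number on replicate 4. Of 12 macrophage markers 11 were detected on all 4 arrays, and Marco was detected on 1. None of 7 epithelial, 4 fibroblast or 3 T cell markers was detected on all 4 arrays, whereas the endothelial markers Pecam1 and Cdh5 were.

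The genes on which most of the values below turn are the metallothioneins. In the GRCr8 gene table Mt1, Mt2A, Mt3 and Mt4 lie next to one another on chromosome 19, in that order. The 250 bases before the start of Mt1, Mt2A, Mt3 and Slc30a1 are shown because these genes are the metallothioneins of the set and the zinc exporter known as an MTF1 target. They are RefSeq sequences on GRCr8, written 5′ to 3′ on the strand of the gene. Capitals mark each match to the 7-base core, TGCACNC or TGCGCNC, on either strand, and matches on the opposite strand read as GNGTGCA or GNGCGCA. Mt1 lies on the minus strand, and its bases are chr19:10832976-10833225. Those of Mt2A, also on the minus strand, are chr19:10838709-10838958. Those of Mt3, on the minus strand as well, are chr19:10856081-10856330. Slc30a1 is on the plus strand, at chr13:106021769-106022018.
Mt1: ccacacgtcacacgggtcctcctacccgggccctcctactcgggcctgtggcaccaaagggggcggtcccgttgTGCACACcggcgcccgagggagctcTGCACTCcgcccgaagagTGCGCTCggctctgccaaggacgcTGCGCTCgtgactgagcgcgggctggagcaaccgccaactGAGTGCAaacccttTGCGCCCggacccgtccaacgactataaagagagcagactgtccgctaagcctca
Mt2A: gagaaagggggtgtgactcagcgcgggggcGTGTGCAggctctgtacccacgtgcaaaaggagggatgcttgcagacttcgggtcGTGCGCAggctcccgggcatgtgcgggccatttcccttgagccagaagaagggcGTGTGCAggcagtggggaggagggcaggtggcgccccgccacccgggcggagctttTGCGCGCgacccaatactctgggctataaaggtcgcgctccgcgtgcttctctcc
Mt3: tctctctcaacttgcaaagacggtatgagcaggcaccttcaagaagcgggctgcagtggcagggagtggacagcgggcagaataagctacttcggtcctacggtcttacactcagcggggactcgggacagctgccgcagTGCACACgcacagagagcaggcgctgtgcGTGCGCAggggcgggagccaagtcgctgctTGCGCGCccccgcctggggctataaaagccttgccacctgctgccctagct
Slc30a1: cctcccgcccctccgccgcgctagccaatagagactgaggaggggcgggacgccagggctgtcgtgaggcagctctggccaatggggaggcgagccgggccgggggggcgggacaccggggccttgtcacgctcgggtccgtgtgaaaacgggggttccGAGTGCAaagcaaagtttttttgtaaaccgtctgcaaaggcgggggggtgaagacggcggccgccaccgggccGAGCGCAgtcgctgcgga

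The Mt1 window held 6 cores within these 250 bases, 5 on the strand of the gene and 1 on the other. Mt2A held 4, with 3 on the opposite strand, and Mt3 held 3. Slc30a1, Mtf1 and Slc30a5 held 2 each, and those of Slc30a5 overlap on opposite strands. Slc39a1 held 1 and Slc39a10 none. Windows of 300 bases, which run to 50 bases after the start, were matched for 8 of the 10 listed genes, all but Slc30a7 and Slc39a14. Of all 33469 windows of this length, 24.2% held at least 1 core, 6.36% at least 2, 1.68% at least 3, 0.439% at least 4 and 0.0388% at least 6. The cores are rich in G and C, and the share depends on base composition. The Mt1, Mt2A and Mt3 windows had a GC content of 65%, 63.7% and 62.7%, against a median of 51.7% over all windows. Among the 7767 windows with 60 to 75% GC, 43.9% held at least 1 core, 15.4% at least 2, 4.44% at least 3 cores, 1.25% at least 4 and 0.0772% at least 6. Of the further MTF1 targets counted below, Csrp1 had 3 cores in its window, 2 of them before the start, and Gclc and Selenoh 0. Selenow had 2, which overlap on opposite strands across the start. No window was matched for Ndrg1. A match is a run of letters and was not measured as a bound site in these cells.

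**Figure D1:**
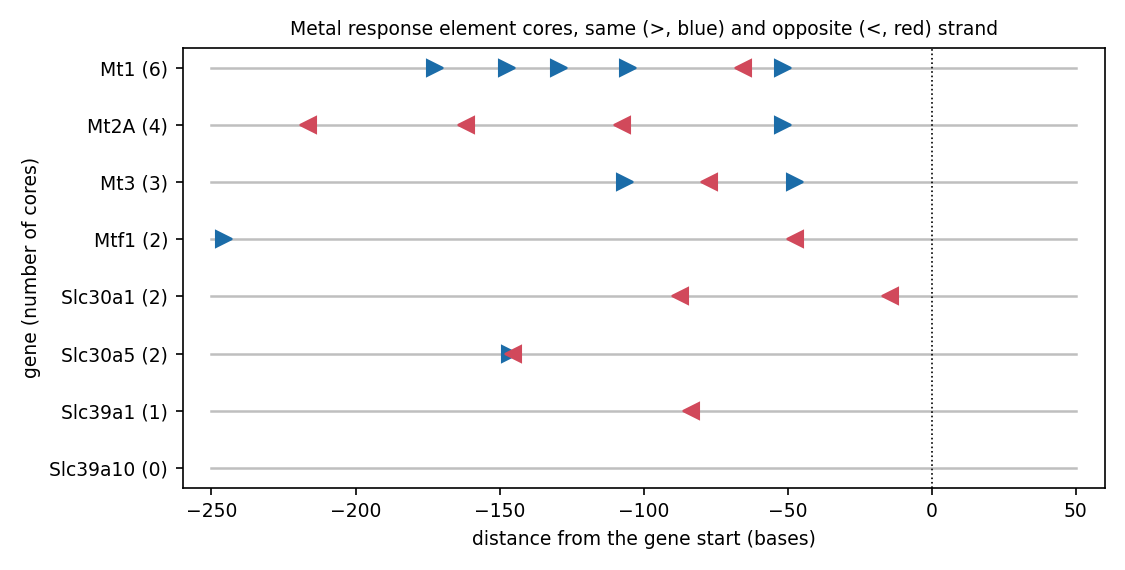
Positions of the metal response element cores (TGCACNC or TGCGCNC) in the RefSeq window of 8 genes, by distance in bases from the gene start, with the number of cores in brackets. Triangles pointing right are on the strand of the gene and those pointing left on the opposite strand. Mt1 has 6 cores, Mt2A 4 and Mt3 3, while Slc39a10 has 0.

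A signal well above background on every array was found for 8 of the 9 measured genes, beside 50.8% of all named genes, and Mt3 was the exception. By role, Mt1 and Mt2A of the 3 metallothioneins, the factor gene Mtf1 and all 5 measured transporters of the set were detected. The set was picked from genes of known function with earlier results of these arrays at hand, and the share was not tested. No spot of these genes was saturated.

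Mt1, the main inducible metallothionein, gave intensities of 2890.05, 1557, 1959 and 3328 on replicates 1 to 4. Relative to the array's 75th percentile these are log2 levels of 4.86, 4.22, 4.28 and 4.71, with a mean of 4.52 ± 0.32 (SD, n = 4). Replicates 1 and 4 were high and replicates 2 and 3 low. The highest and lowest level differed 1.56-fold.

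The Mt1 probe is printed 10 times on each array, which gives the noise between spots within an array. After removal of spots marked as outliers, 10, 9, 9 and 9 spots remained on replicates 1 to 4, with an SD over spots of 0.13, 0.10, 0.07 and 0.07 log2 units. The lowest spot level of replicate 1 was 4.66 and that of replicate 4 was 4.59, whereas the highest spot was at 4.38 on replicate 2 and 4.37 on replicate 3. No spot of replicates 1 and 4 thus fell among those of replicates 2 and 3. In limma's moderated F test on single spots, with the array as a factor, the arrays differed for Mt1 (adjusted p = 9.2e-15). This was also the case for 82.1% of the 1350 probes printed often enough to be tested, so a difference between arrays beyond the noise of spots is the usual state and is not particular to Mt1. Spots of one array share 1 RNA sample, and this test does not speak of cultures in general. One of the 10 spots lies in a region that was bright on replicate 4, and without such regions the 4 levels were 4.86, 4.21, 4.30 and 4.68.

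**Figure D2:**
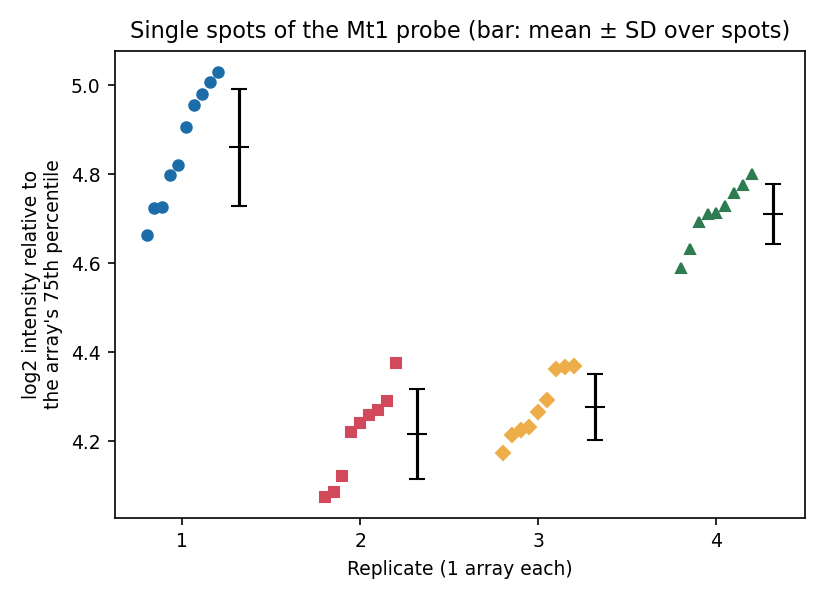
Log2 intensity of each single spot of the Mt1 probe relative to its array's 75th percentile, by replicate. Each symbol is 1 spot and the bars beside them give the mean ± SD over the 9 or 10 spots of an array. The spots of replicates 1 and 4 lie at 4.59 or higher and those of replicates 2 and 3 at 4.38 or lower.

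Mt2A, the second ubiquitous metallothionein, was measured by a single spot, with intensities of 207, 149, 171 and 256. Its levels were 1.06, 0.83, 0.76 and 1.01, with a mean of 0.91 ± 0.14 (SD, n = 4). With 1 spot on each array, the noise between spots of this probe was not measured. Replicates 1 and 4 were again the higher pair and replicates 2 and 3 the lower pair, over a range of 1.23-fold. Mt1 and Mt2A were the 2 of 8 detected genes of the set with this order, and 15.8% of the 8424 detected named genes showed it too. The order was noticed in these values and was not tested. With normexp background correction Slc39a1 showed it as well, beside 24.7% of all detected genes. With flagged spots kept Slc30a5 did, beside 10.8%. Under quantile normalization, and with the percentile taken over detected probes, the order held for Mt1 and Mt2A, beside 17.9% and 17.4% of detected genes. It held as well with normexp background correction, with flagged spots kept and without the bright regions, the last beside 12.5%. It did not hold for either gene when the array median replaced the 75th percentile, where replicate 4 of Mt1 came to lie below replicate 3 (8.03 against 8.28). With the array median 1.01% of all detected genes showed the order.

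Mt3, known as the metallothionein of brain, had no spot well above background on any array. The mean over its 9 or 10 spots was an intensity of 6.31, 3.02, 4.46 and 5.09, and its measured level was -4.48 ± 0.36 (SD, n = 4). The lowest spot called well above background on each array lay between 9.17 and 10.3, and the highest negative control spot between 3.46 and 3.92. Single Mt3 spots exceeded their array's lowest called spot without being called, namely 4 of 10 on replicate 1, up to 12.4, and 1 of 9 on replicate 4, at 9.50. On every array the highest Mt3 spot lay above the highest negative control spot, with 4.63 on replicate 2 and 7.46 on replicate 3. By the less strict flag, which asks only for a positive and significant signal, at least 1 of its spots passed on every array.

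Mt4, the metallothionein of stratified epithelium and the neighbour of Mt3, was detected on replicates 2 and 4. Its single spot had intensities of 15.0, 20.6, 3.10 and 32.1, and replicate 3 was the low one. Its measured level was -2.94 ± 1.43 (SD, n = 4), the widest spread among the 4 metallothionein genes. In the order of the cluster, Mt1 and Mt2A were thus detected on every array, Mt3 on none and Mt4 on replicates 2 and 4.

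Mtf1 was measured by 2 probes of the same transcript. The brighter one read 68.0, 66.6, 84.4 and 77.5, a level of -0.46 ± 0.21 (SD, n = 4), and was detected on all 4 arrays. The weaker one read 23.1, 19.5, 15.7 and 30.5, a level of -2.24 ± 0.30 (SD, n = 4), and missed the flag on replicate 3. The probes also disagreed on the order of the replicates. Replicate 3 was the highest for the first probe (-0.26) and the lowest for the second (-2.68), while replicate 4 was the lowest for the first (-0.71) and the highest for the second (-2.06). The Mtf1 values therefore do not settle which culture had more of its RNA.

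Genes known as MTF1 targets were detected throughout. Every one of the 8 measured targets, of 9 listed, passed the flag on the 4 arrays, again beside 50.8% of all named genes. Besides Mt1, Mt2A and Slc30a1 these were Csrp1, a LIM-domain protein, at 3.12 ± 0.11 and Ndrg1, a stress-induced gene, at 1.81 ± 0.22 (SD, n = 4 for both). Gclc, the catalytic subunit of the first step of glutathione synthesis, had a level of 3.86 ± 0.19 (SD, n = 4). The selenoprotein genes Selenow and Selenoh had levels of 2.55 ± 0.15 and 6.13 ± 0.18 (SD, n = 4 for both). Only Mt1 and Mt2A of these 8 genes had replicates 1 and 4 above replicates 2 and 3 at the 75th percentile scaling. Under normexp Selenoh had this order as well. The shares of all detected genes with it were 15.8% and 24.7%. Csrp1, Ndrg1, Gclc and Selenow were highest on replicate 3, as were 31.5% of all detected genes.

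Slc30a1 encodes ZnT1, which exports zinc across the plasma membrane. Its single spot read 203, 185, 260 and 380 on replicates 1 to 4. The levels were 1.03, 1.14, 1.36 and 1.58, with a mean of 1.28 ± 0.24 (SD, n = 4). Replicate 4 was highest and replicate 1 lowest, so that its order differed from that of Mt1 and Mt2A, where replicate 1 was highest. The spot lies in a block in which 11.1% of the spots of unnamed probes were bright on replicate 4, which is also its highest array, and the part of this block in the value was not tested. Without the spots of bright blocks Slc30a1 has no measurement.

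Slc30a5 and Slc30a7 encode ZnT5 and ZnT7, which load zinc into the early secretory pathway. Slc30a5 read 225, 190.2, 210.2 and 374, a level of 1.24 ± 0.22 (SD, n = 4). Replicates 1 to 3 lay between 1.06 and 1.18, and replicate 4 stood above them at 1.56. Slc30a7 read 65.1, 69.0, 74.1 and 76.8, a level of -0.52 ± 0.19 (SD, n = 4). For this gene replicate 2 was highest (-0.28) and replicate 4 lowest (-0.73), so that these transporters of one compartment were at opposite ends on replicate 4. The intensities of Slc30a7 were highest on replicate 4, and replicate 4 was the lowest after scaling to that array's larger 75th percentile.

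Slc39a1 encodes ZIP1, an importer of the plasma membrane. Its brighter probe read 4636, 3336, 5285 and 5936, with levels of 5.54, 5.32, 5.71 and 5.55 and a mean of 5.53 ± 0.16 (SD, n = 4). The 4 levels lay within 1.31-fold of one another, with replicate 2 lowest. A second probe of the same transcript read 77.2, 73.3, 86.5 and 117, a level of -0.22 ± 0.10 (SD, n = 4). Both probes were well above background on every array, yet their signals were far apart, and the mean over both was 2.65. The level of Slc39a1 thus rests on the choice of probe, while its detection does not.

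**Figure D3:**
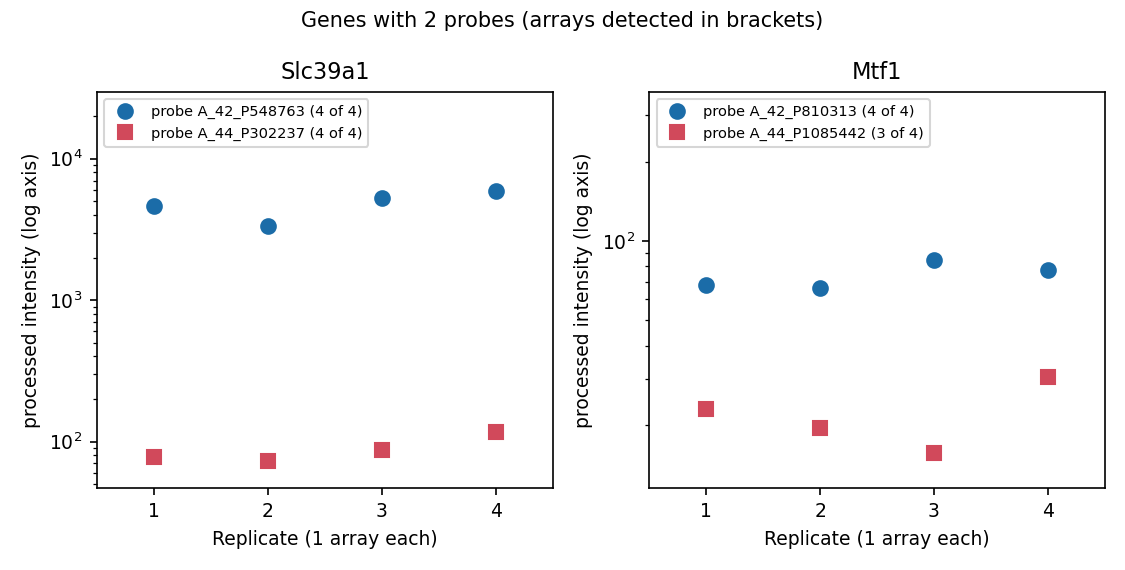
Processed intensity (log axis) of the 2 probes of Slc39a1 (left) and of Mtf1 (right) on each array, 1 symbol for each probe and replicate. The Slc39a1 probes read 3336 to 5936 and 73.3 to 117. For Mtf1, replicate 3 is the highest array of one probe and the lowest of the other.

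Slc39a14 encodes ZIP14, an importer of zinc, manganese and iron that inflammatory signals induce in liver. Its single spot gave intensities of 20.1, 24.0, 26.9 and 39.0, not far above the lowest spots that were called well above background. The levels were -2.31, -1.80, -1.91 and -1.70, with a mean of -1.93 ± 0.27 (SD, n = 4). Replicate 1 was the low one.

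**Figure D4:**
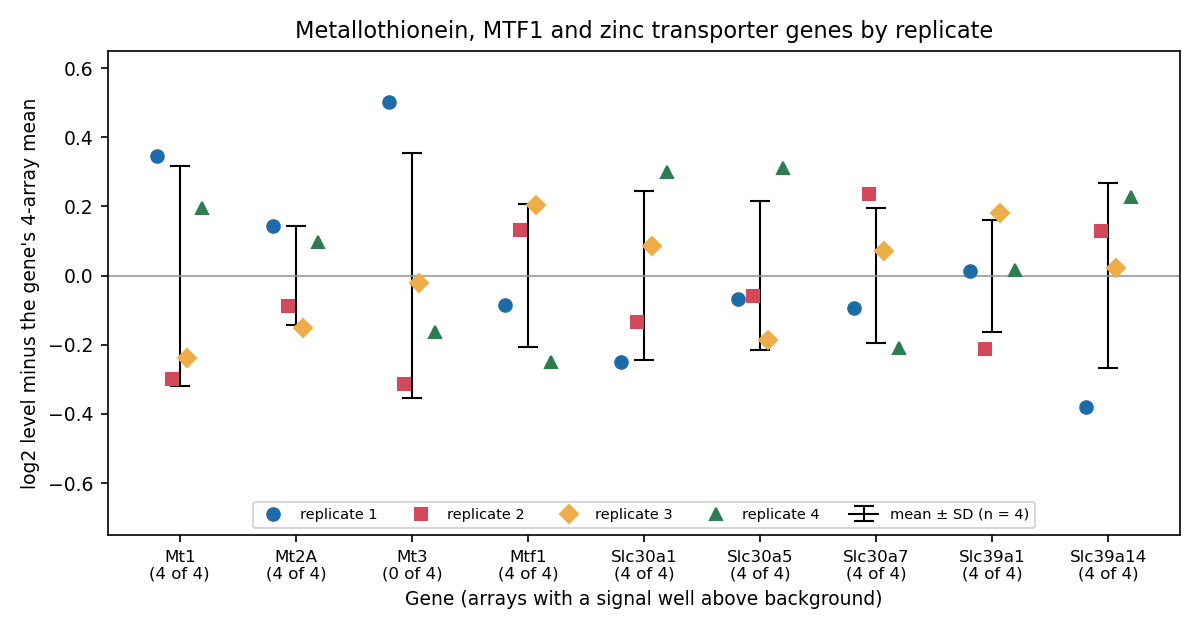
Log2 level of the 9 measured genes on each array, as the difference from the gene's own 4-array mean, with 1 symbol for each replicate, bars of ± 1 SD (n = 4) and the number of arrays with detection under each name. Replicates 1 and 4 are above the mean for Mt1 and Mt2A, while Slc30a1 and Slc39a14 are lowest on replicate 1. Mt3 is not well above background on any array.

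The 8 detected genes had a median SD of 0.21, from 0.14 for Mt2A to 0.32 for Mt1, beside a median of 0.16 over all 8424 detected genes, whose 5th to 95th percentile range was 0.06 to 0.41. The SD of Mt1 was larger than that of 88.2% of the detected genes, and that of Mt2A larger than that of 40.0%. Replicate 4 was the highest array for 3 of the 8 genes and the lowest for 2, where the shares of all detected genes were 20% and 29.8%. Replicate 1 was the highest for 2 and the lowest for 2, where these shares were 31% and 20.9%. With 8 genes nothing is read from these counts.

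Of the ZnT genes outside the set 3 of 7 were detected on all 4 arrays, which makes 6 of 10 in the whole family, near the share of 50.8% over all named genes. Slc30a2, Slc30a4, Slc30a8 and Slc30a10 were detected on none. Slc30a8, ZnT8, is known from the insulin granules of pancreatic beta cells. Beyond the genes above, Slc30a3 had a level of -1.19 ± 0.16, Slc30a6 one of 1.51 ± 0.23 and Slc30a9 one of -2.12 ± 0.05 (SD, n = 4 for all). Slc30a6, ZnT6, is the partner of ZnT5 in a complex, and it was highest on replicate 3 (1.78) where Slc30a5 was lowest. Tmem163, another zinc exporter, was detected on no array.

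Of the ZIP family all 12 measured genes, 10 of them outside the set, were detected on all 4 arrays, beside the same share of 50.8%, with Slc39a10 and Slc39a13 not measured. Slc39a8, ZIP8, which brings zinc into the cytosol of immune cells and is a target of NF-kB, had a level of 2.60 ± 0.24 (SD, n = 4). Slc39a7, ZIP7, which releases zinc from the endoplasmic reticulum, had one of 2.54 ± 0.20 (SD, n = 4). Slc39a6 had a level of 3.17 ± 0.23, Slc39a3 one of 4.12 ± 0.20 and Slc39a9 one of -0.03 ± 0.36 (SD, n = 4 for all). Slc39a2 had a level of 0.14 ± 0.18, Slc39a4, the intestinal zinc importer, one of 0.41 ± 0.22 and Slc39a11 one of -0.67 ± 0.20 (SD, n = 4 for all). The widest spreads in the family were those of Slc39a5 (-0.91 ± 1.002) and Slc39a12 (-1.69 ± 0.76; SD, n = 4 for both).

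**Figure D5:**
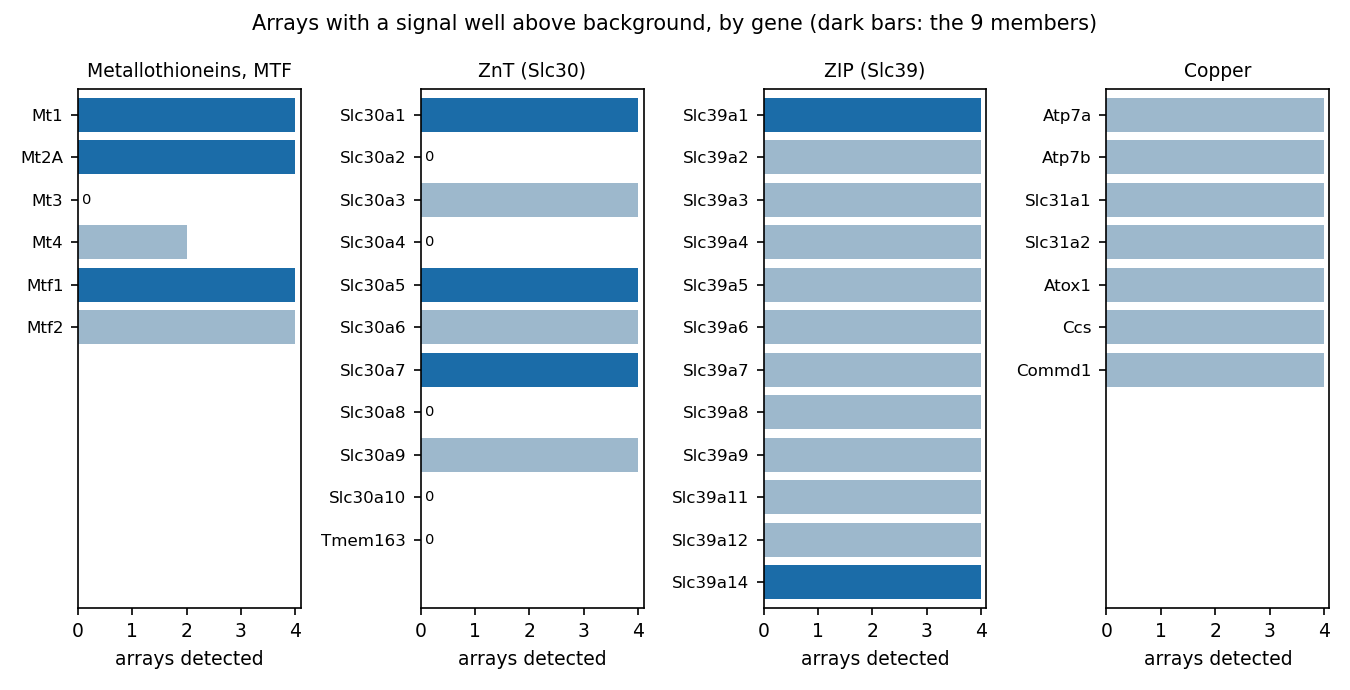
Number of arrays, out of 4, on which each gene had a signal well above background, for metallothioneins and metal-responsive factors, the ZnT and ZIP families and copper handling genes. Dark bars are the genes of the set, light bars the other genes, and a 0 marks detection on no array. All 12 measured ZIP genes reach 4 arrays, whereas 4 of the 10 ZnT genes, Tmem163 and Mt3 are at 0.

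The copper handling genes, which share metallothionein as a buffer, were all detected on all 4 arrays (7 of 7). The copper pump genes Atp7a and Atp7b had levels of 2.86 ± 0.07 and -2.33 ± 0.30, and the second of the 2 probes of Atp7b was not well above background on any array (SD, n = 4 for both). The copper importer gene Slc31a1 had a level of -1.07 ± 0.11 and Slc31a2 one of 5.11 ± 0.02 (SD, n = 4 for both). Atox1 and Ccs, which carry copper to its target proteins, had levels of 4.65 ± 0.16 and 3.48 ± 0.11, and Commd1 one of 5.44 ± 0.08 (SD, n = 4 for all). Mtf2, a Polycomb-associated protein named for its binding to metal response elements, had one of -0.59 ± 0.30 (SD, n = 4). In all, 21 of the 27 measured genes listed beside the set reached detection on all 4 arrays, where the share of all named genes was 50.8%.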

How the data were processed

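The authors deposited the linear intensity of each spot. The submitters' processing notes name Agilent Feature Extraction 11.0.1.1. The processed signal has the background subtracted and is not normalized between arrays, per the file headers. Probes were named by matching their accession, without version, to the RefSeq gene table of GRCr8, which named 21109 of 45598 probes. The grid was built on rn4, so no probe coordinates are given.

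Spots marked as non-uniform or population outliers were left out (750 to 1551 an array, 5 of them spots of these genes). A probe's log2 intensity is the mean over its remaining spots, scaled to the array's 75th percentile. A gene's level is that of its brightest probe measured on all arrays. Mt1 copies of similar sequence could share signal, which was not tested, since probe sequences were not used here.

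Single spots of probes with 3 or more spots on every array were fitted with limma 3.58.1 in R 4.3.3, with Benjamini-Hochberg adjustment at 0.05. On simulated data for these 1350 probes it recovered 187 of 200 probes shifted by 0.5 log2 units on 1 array, with 10 calls among 1150 unshifted probes. The simulated noise was normal and independent between spots, without bright regions, so these counts hold for such noise only. Other steps used Python 3.11.15.

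The genes and lists were chosen with earlier results of these data known. Named with values are the genes of the set and, of the zinc, copper and MTF1 target lists, those detected on all arrays. Mt4, the order of replicates, the spot test and the GC range were chosen after values were seen. All 4 arrays share 1 slide and 1 scan, and their number limits the precision. A planned comparison of metallothionein proteins was not made.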

Additional observations from a re-analysis of the deposited data

How the results depend on the processing

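The number of genes of the set detected on all 4 arrays, 8, was 9 with the less strict flag, which added Mt3, where the share of all named genes went from 50.8% to 61.7%. It was 7 when every probe of a gene had to pass, where that share was 45.2%, and 7 when spots in bright regions were left out, where it was 47.9%. It was 8 without any one replicate (share 51.2% to 52.6%), when 3 of 4 arrays were enough (54.0%), and with flagged spots kept (51.3%). The other zinc and copper genes gave 19 with all probes required and 21 under every other alternative run. The MTF1 targets gave 8 under each, including without any one replicate. The shares of all named genes at these settings are those just given. The median SD of the detected genes, 0.21, rose to 0.39 with the array median, beside 0.39 over all detected genes. The reference in that setting was the median over probes. It lay lower on every array than the median over single spots, which was an intensity of 12.9 to 20.7. On replicates 1 to 3 this reference lay below the array's lowest spot well above background. Without any one replicate the median SD ranged from 0.17 to 0.24. Levels moved by more than their SD for 9 of 9 genes with the array median and with the percentile over detected probes, since both change the reference, for 6 with normexp and for 2 with the mean of all probes (Mtf1 at -1.35 and Slc39a1 at 2.65). Normexp was run on the median signals, a choice made after the files were seen, because the planned mean signals are not among the columns used here. No paired analysis was possible because the samples analysed form 1 group.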

Other observations

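Replicate 3 gave the lowest value for several low-level genes near the set. The 3 described here, Slc39a5, Slc39a12 and Mt4, were picked after their values were seen. Slc39a9, Slc30a9, Atp7b and Mtf2 were also lowest on replicate 3, whereas Slc30a3, Slc39a11 and Slc31a1 were not. Slc39a5, ZIP5, an importer known from the basolateral membrane of gut and pancreas cells, read 61.3, 64.9, 19.3 and 110.5 on its brighter probe. Its second probe read 7.69, 12.2, 2.95 and 21.0, so both probes were lowest on replicate 3, and the second was detected on replicate 4 alone. Slc39a12, ZIP12, known from brain, read 57.9, 30.2, 17.0 and 32.8, with replicate 1 highest. Mt4 was low on the same array, at 3.10. Of the 8 detected genes of the set, Mt2A and Slc30a5 were lowest on replicate 3, where the share of all detected genes was 22.5%.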
